A study of Mus musculus with 18 samples.

Results

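The 10 genes described here encode amino acid transporters of the plasma membrane: *Slc7a1*, *Slc7a3*, *Slc7a5*, *Slc7a11*, *Slc7a13*, *Slc3a2*, *Slc6a9*, *Slc38a2*, *Slc1a4* and *Slc1a5*. They were taken by symbol from a count table of 40800 genes, in which all 10 were found. The names were chosen by measured values, the differences between *Cryaa*-R49C-homo and other lenses in these libraries being known, so the levels of that genotype, and the counts of transporters past a threshold in it, are given below as a description, with no p-value, and nothing is read from them. RNA of whole mouse lenses was sequenced in 18 libraries, 3 in each of 6 groups, and several lenses were combined in a library. All mice were C57BL/6J. In the first line, lenses were taken at 2 days from wild-type (WT) mice and from heterozygotes (*Cryaa*-R49C-het) and homozygotes (*Cryaa*-R49C-homo) for a knock-in arginine-to-cysteine change in αA-crystallin. In the second, lenses were taken at 14 days from WT mice and from heterozygotes (*Cryab*-R120G-het) and homozygotes (*Cryab*-R120G-homo) for a knock-in arginine-to-glycine change in αB-crystallin. Age and line change together throughout, and an effect of age cannot be told apart from one of line. In 6 *Cryab* libraries the genotype label names the other line, and the sample titles were followed. Libraries held 14272174 to 29639719 assigned reads.

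Amino acids do not cross membranes unaided, and solute carriers set which of them a cell can take up or exchange. The lens has no blood supply of its own once its embryonic vessels regress, and its cells take amino acids from the surrounding humours for crystallin synthesis and, as cysteine, glutamate and glycine, for glutathione. Heteromeric transporters join the heavy chain encoded by *Slc3a2*, which carries the complex to the membrane, to a light chain that moves the substrate. Several genes of these families are known targets of ATF4, a transcription factor made when amino acids run short or proteins misfold, and *Slc7a11* is also a known target of NRF2, the regulator of the antioxidant response.

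In the genotype whose values informed the choice of the genes, and where 9.79% of all genes were past the threshold, *Slc7a1*, *Slc7a3* and *Slc1a4* were 2.73-fold, 12.5-fold and 2.60-fold higher in *Cryaa*-R49C-homo than in WT lenses, and *Slc7a13*, read in every library of the other 5 groups, had no count in any *Cryaa*-R49C-homo library. In the WT lenses, *Slc7a13* was 7.91-fold higher at day 14 than at day 2, the one transporter of the 10 that passed the test there, as 23.2% of all genes did. No transporter passed the test in *Cryaa*-R49C-het, *Cryab*-R120G-het or *Cryab*-R120G-homo lenses, where 0.00717%, 0.00717% and 0.0502% of all genes did, so that 0 of 10 is near the background. Levels are read counts relative to library size (CPM) scaled by trimmed mean of M values (TMM), and the test is the edgeR quasi-likelihood test with Benjamini-Hochberg adjustment over 13938 genes, with a threshold of 0.05.

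Promoters of the transporters were read for the composite element TGATGCAA, to which ATF4 is known to bind with a C/EBP partner. RefSeq windows of the GRCm38.p6 assembly, from 250 bases before to 50 bases after a transcription start, were at hand for 6 of the 10 genes, with 9 windows in all: *Slc7a1*, *Slc7a11*, *Slc3a2*, *Slc6a9*, *Slc38a2* and *Slc1a4*. In 8 of the 9 windows, bases after the start were found in a GENCODE transcript of the gene. In the *Slc3a2* window (start site chr19:8713897, within the gene at 8706882-8723369) they were not, so a missing element there says little about the *Slc3a2* promoter. No window was used for *Slc7a3*, *Slc7a5*, *Slc7a13* or *Slc1a5*. The element was searched on both strands and occurred in windows of 2 of the 6 genes, *Slc7a11* and *Slc1a4*. Over all promoters it was in windows of 1.03% of 27025 genes, or 0.895% of 32851 windows. The upstream part of the *Slc7a11* window (chr3:50443614-50443863, minus strand) is shown because it holds the element in both orientations, at positions -66 and -47 from the start site, and is followed by the 30 bases around the *Slc1a4* element (chr11:20332699-20332728, minus strand, element from position -4) and by the upstream part of a *Slc7a1* window without it (chr5:148399905-148400154, minus strand). Capitals mark TGATGCAA or its reverse complement.
Slc7a11: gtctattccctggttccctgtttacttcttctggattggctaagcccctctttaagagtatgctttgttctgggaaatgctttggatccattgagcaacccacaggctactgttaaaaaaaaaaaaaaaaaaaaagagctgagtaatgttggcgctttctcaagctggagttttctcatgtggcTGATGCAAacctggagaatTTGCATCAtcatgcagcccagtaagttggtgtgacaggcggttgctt
Slc1a4: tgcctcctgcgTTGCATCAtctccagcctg
Slc7a1: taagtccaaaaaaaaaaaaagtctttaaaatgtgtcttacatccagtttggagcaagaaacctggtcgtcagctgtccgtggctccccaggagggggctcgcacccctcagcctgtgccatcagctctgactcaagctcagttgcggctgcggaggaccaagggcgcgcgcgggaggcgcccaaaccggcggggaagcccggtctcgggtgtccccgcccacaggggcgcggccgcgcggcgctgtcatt
With the sixth base of the element left free (TGATGNAA), windows of the same 2 genes matched, against 4.51% of all genes. The antioxidant response element core TGACNNNGC occurred in windows of *Slc7a1*, *Slc6a9* and *Slc38a2*, and in those of 14.0% of all genes. These matches are a description of the letters in these windows. *Slc1a4* and *Slc7a11* both hold the composite element, and their log2 fold changes in *Cryaa*-R49C-homo against WT lenses were 1.38 and -0.32.

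*Slc7a1* and *Slc7a3* encode CAT-1 and CAT-3, carriers of the cationic amino acids arginine, lysine and ornithine. *Slc7a1* (ENSMUSG00000041313, chr5:148327410-148399904, minus strand, GRCm38) and *Slc7a3* (ENSMUSG00000031297, chrX:101079210-101086020, minus strand) were counted over their annotated exons. *Slc7a1* stood at 4.90, 5.81 and 4.34 CPM in the WT libraries, 3.98, 5.63 and 4.04 CPM in the het libraries and 8.85, 18.9 and 13.4 CPM in the homo libraries of the *Cryaa* line. Every homo library lay above all 6 others, with a mean of 13.7 ± 5.03 CPM (SD, n = 3) against 5.02 ± 0.739 CPM in WT, a log2 fold change of 1.45 (SE 0.26). *Slc7a3* was close to the counting limit in WT and het lenses, with 3, 4 and 2 reads in the WT and 0, 4 and 3 reads in the het libraries. The homo libraries held 97, 38 and 25 reads, or 2.14, 1.19 and 0.951 CPM, and none came near the other genotypes. The log2 fold change was 3.64 (SE 0.69). *Slc7a3* never exceeded 5 reads outside these 3 libraries, so that it entered the tested set through them alone.

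**Figure D1:**
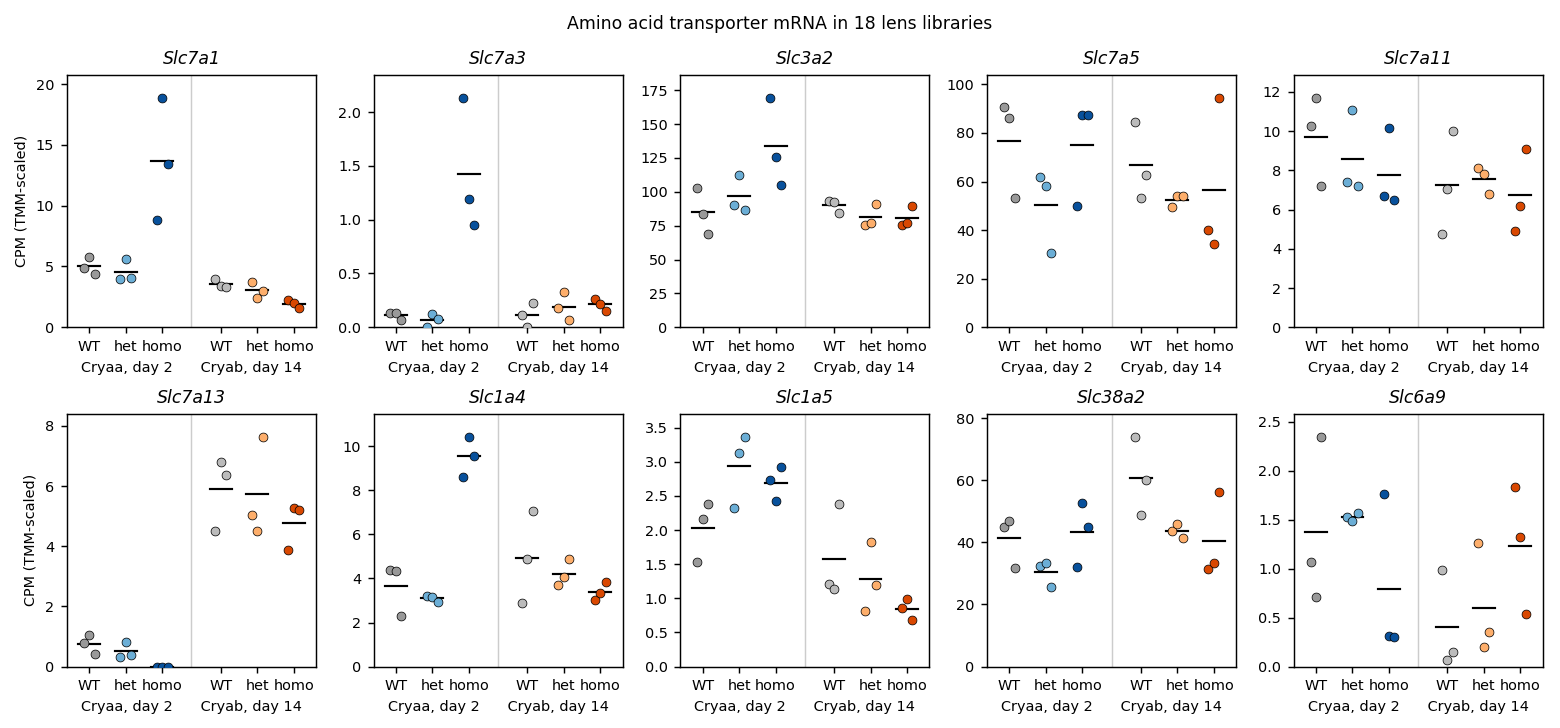
CPM (TMM-scaled, linear axes from 0) of the 10 transporters in each library, with the 3 genotypes of the *Cryaa* line at day 2 on the left of each panel and those of the *Cryab* line at day 14 on the right. Points are libraries and bars are means of 3; the *Cryaa*-R49C-homo libraries lie apart upwards in *Slc7a1*, *Slc7a3* and *Slc1a4*, and at 0 in *Slc7a13*.

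*Slc1a4* (ASCT1; ENSMUSG00000020142, chr11:20302180-20332713, minus strand) is a sodium-dependent exchanger of alanine, serine, cysteine and threonine. Its levels were 4.39, 4.36 and 2.28 CPM in WT, 3.19, 3.16 and 2.94 CPM in het and 8.61, 10.4 and 9.58 CPM in homo lenses of the *Cryaa* line. The homo libraries were again above all 6 others, and they varied little among themselves, at 9.54 ± 0.913 CPM (SD, n = 3). The log2 fold change against WT was 1.38 (SE 0.27). *Slc1a5* (ASCT2), the related glutamine exchanger, was at 1.53, 2.16 and 2.38 CPM in WT, 2.32, 3.13 and 3.37 CPM in het and 2.73, 2.42 and 2.93 CPM in homo lenses. Its homo libraries lay just above the WT libraries but within the range of the het libraries, and its log2 fold change against WT was 0.40 (SE 0.31). For *Slc1a4* the homo and het libraries lay apart, and for its paralog they overlapped.

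*Slc3a2* (4F2hc, CD98), the heavy chain, was at 102.5, 84.0 and 68.9 CPM in WT, 90.4, 112.7 and 86.8 CPM in het and 169.6, 125.5 and 105.3 CPM in homo lenses of the *Cryaa* line. The homo range began just above the highest WT library and overlapped the het range. The log2 fold change against WT was 0.65 (SE 0.21). *Slc7a5* (LAT1), the light chain with the highest level per kilobase here, carries leucine and other large neutral amino acids. It was at 90.8, 85.9 and 53.2 CPM in WT, 61.8, 58.0 and 30.6 CPM in het and 49.8, 87.4 and 87.3 CPM in homo libraries. Its log2 fold change against WT was -0.03 (SE 0.34). *Slc7a11* (xCT, the cystine-glutamate exchanger) was at 10.3, 11.7 and 7.18 CPM in WT, 7.41, 11.1 and 7.23 CPM in het and 6.67, 10.2 and 6.50 CPM in homo libraries, a log2 fold change of -0.32 (SE 0.28). For both light chains the WT and homo ranges overlapped. Per kilobase of exon, *Slc7a5* amounted to 0.851 ± 0.120 of *Slc3a2* in WT, 0.492 ± 0.158 in het and 0.577 ± 0.266 in homo lenses (SD, n = 3). The het ratios of 0.335 to 0.651 lay below the WT ratios of 0.735 to 0.974, and the homo ratios of 0.279 to 0.789 overlapped them. For *Slc7a11* the ratio was 0.0291 ± 0.00550, 0.0223 ± 0.00233 and 0.0154 ± 0.00530 (SD, n = 3), and both the het ratios of 0.0208 to 0.0250 and the homo ratios of 0.00997 to 0.0206 lay below the WT ratios of 0.0254 to 0.0354. These ratios were not tested.

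*Slc7a13* (AGT1; ENSMUSG00000041052, chr4:19818725-19842218, plus strand) is a light chain that carries aspartate, glutamate and cystine, known chiefly from the kidney tubule. At day 2 it was a low but steady transcript, with 18, 31 and 12 reads in the WT and 12, 26 and 16 reads in the het libraries, or 0.767, 1.05 and 0.420 CPM and 0.327, 0.822 and 0.399 CPM. The 3 homo libraries, with 15362115 to 20061547 assigned reads, had 0 reads of *Slc7a13* each. Set at a floor of 3 reads over the group, the homo level was at least 25.8-fold lower than WT and at least 17.2-fold lower than het. At day 14 the same gene was at 4.52, 6.81 and 6.38 CPM in WT, 5.05, 4.50 and 7.64 CPM in *Cryab*-R120G-het and 3.87, 5.28 and 5.20 CPM in *Cryab*-R120G-homo lenses. All 9 libraries of the *Cryab* line lay above all 9 of the *Cryaa* line, and the 3 genotypes of the *Cryab* line overlapped. *Slc3a1*, the heavy chain that *Slc7a13* is known to pair with in kidney, never exceeded 3 reads in any library; it was looked up after its values had been seen.

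*Slc38a2* (SNAT2), a sodium-coupled carrier of small neutral amino acids, was at 45.1, 47.0 and 31.8 CPM in WT, 32.3, 33.3 and 25.7 CPM in het and 32.1, 52.7 and 45.0 CPM in homo lenses of the *Cryaa* line. Its homo libraries spanned the WT range, and the log2 fold change was 0.07 (SE 0.25). *Slc6a9* (GlyT1), which takes up glycine, was at 1.07, 0.709 and 2.35 CPM in WT, 1.53, 1.49 and 1.57 CPM in het and 1.76, 0.314 and 0.304 CPM in homo lenses. The first homo library thus stood well above the other two, and the log2 fold change of -0.73 (SE 0.71) became -2.13 without it. *Slc6a9* shares 1986 of its 5141 exon bases with *Gm17114*, *Ccdc24* and *B4galt2* on the other strand, and whether reads were counted by strand is not given in the sources used here. Without strand, its reads and theirs cannot be told apart.

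Of the 10 transporters, 3 were higher and 1 was lower in *Cryaa*-R49C-homo than in WT lenses past the threshold, against 9.79% of all genes tested, 4.87% higher and 4.91% lower. The homo and WT libraries did not overlap in 5 higher and 1 lower transporters, against 24.5% of all genes, 11.9% higher and 12.6% lower. The 5 were *Slc7a1*, *Slc7a3*, *Slc1a4*, *Slc3a2* and *Slc1a5*. Against het lenses the same 4 genes were past the threshold, against 8.32% of all genes, 4.69% higher and 3.63% lower, with log2 fold changes of 1.59 (SE 0.26) for *Slc7a1*, 4.35 (SE 0.71) for *Slc7a3* and 1.62 (SE 0.27) for *Slc1a4*. Homo and het libraries did not overlap in these 4 genes alone, against 22% of all genes, 11.6% higher and 10.5% lower. Since these libraries informed the choice of the genes, and *Slc7a3* was kept through the homo libraries alone, these counts are a description and say nothing about transporters as a group. The median log2 fold change of the 10 genes was 0.24, and that of all genes was 0.00473. Scaled by library size only, all genes had a median of 0.41, and the genes past the threshold went from 679 higher and 685 lower to 1884 and 254. On that scale *Slc7a1* was at 1.87, *Slc7a3* at 4.18, *Slc1a4* at 1.87 and *Slc3a2* at 1.13, while *Slc7a11* turned from -0.32 to 0.15.

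The lens is not a pure tissue, and other cells in the *Cryaa*-R49C-homo libraries differed too. Summed vessel markers (8 genes) were at 48.1, 185.0 and 154.5 CPM in the homo libraries against 43.9 to 69.8 CPM in WT, and 2 of the 8, *Cdh5* and *Rgs5*, passed the test upwards. Macrophage markers (8 genes, with *Aif1* and *C1qa* past the test upwards) summed to 16.7, 29.1 and 34.5 CPM against 7.0 to 16.2 CPM in WT. Lens fibre markers (12 genes, *Lim2* at 0 throughout) summed to 170574, 89154 and 63850 CPM against 141095 to 210676 CPM, and pigment and ciliary epithelium markers (9 genes, with *Mlana*, *Pmel* and *Slc6a13* past it downwards) to 16.3, 11.5 and 10.5 CPM against 21.2 to 38.2 CPM. None of the lists was wholly at 0. The first homo library had vessel and fibre markers within the WT range, macrophage markers just above it and pigment markers below it, and among the homo libraries *Slc7a3* was at its highest there, at 2.14 CPM, while *Slc7a1* and *Slc1a4* were at their lowest, at 8.85 and 8.61 CPM. Without this library the log2 fold changes were 1.68 for *Slc7a1*, 3.22 for *Slc7a3*, 1.45 for *Slc1a4* and 0.44 for *Slc3a2*. The part of these cells in the levels of the transporters was not tested in any library. In RNA of whole lenses, fewer cells of a type and less RNA per cell cannot be told apart.

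**Figure D2:**
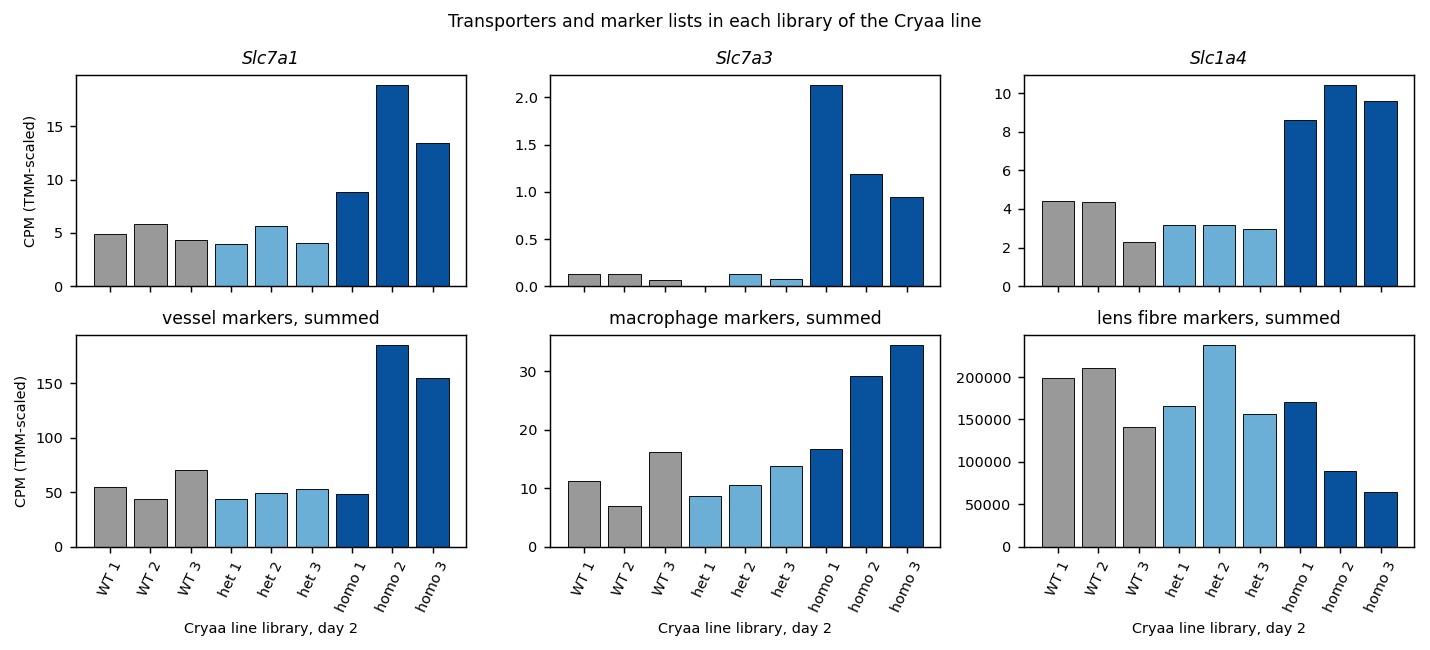
CPM (TMM-scaled, bars from 0) of *Slc7a1*, *Slc7a3* and *Slc1a4* and summed CPM of the vessel, macrophage and lens fibre markers in the 9 libraries of the *Cryaa* line. Bars are single libraries; the first homo library has vessel markers at 48.1 CPM, inside the WT range, and *Slc1a4* at 8.61 CPM, above it.

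In *Cryaa*-R49C-het lenses none of the 10 transporters passed the test against WT, where 0.00717% of all genes did, and 0 had an unadjusted p under 0.05, against 5.09% of all genes. In none did the 3 het libraries lie apart from the 3 WT libraries, against 21.9% of all genes. The WT libraries are those that the homo lenses were compared with. *Slc7a5* and *Slc38a2* were lowest of their line in the third het library, at 30.6 and 25.7 CPM. Their log2 fold changes against WT were -0.61 (SE 0.34) and -0.44 (SE 0.25), and *Slc1a5* was at 0.53 (SE 0.31), each with an adjusted p of 0.836 in edgeR. For the genes that stood apart in homo lenses, the het changes were -0.14 (SE 0.26) for *Slc7a1*, -0.71 (SE 0.86) for *Slc7a3*, -0.24 (SE 0.28) for *Slc1a4* and -0.55 (SE 0.40) for *Slc7a13*.

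In the *Cryab* line none of the 10 passed the test in homo against WT lenses, where 0.0502% of all genes did, and 3 had an unadjusted p under 0.05, against 6.1% of all genes. *Slc7a1* was at 3.97, 3.40 and 3.34 CPM in WT, 3.70, 2.41 and 3.01 CPM in het and 2.23, 1.98 and 1.61 CPM in homo lenses. All 3 homo libraries lay below all 6 others. The log2 fold change against WT was -0.87 (SE 0.29), with an adjusted p of 0.618 in edgeR. *Slc1a5* was at 1.21, 1.13 and 2.37 CPM in WT and 0.852, 0.990 and 0.688 CPM in homo lenses, a log2 fold change of -0.89 (SE 0.38), with an adjusted p of 0.746 in edgeR. These were the 2 transporters whose homo and WT libraries did not overlap, against 9% of all genes, 4.5% lower. *Slc38a2*, at 74.0, 48.7 and 60.0 CPM in WT and 31.3, 33.4 and 56.4 CPM in homo lenses, had a log2 fold change of -0.59 (SE 0.25) and the same adjusted p. Summed pigment and ciliary epithelium markers (9 genes) were at 21.3 to 36.2 CPM in homo, 22.2 to 64.2 CPM in het and 7.5 to 9.1 CPM in WT lenses of this line. Of the 9, 8 lay apart upwards from WT in either genotype, 1 passed the test in homo and 0 in het lenses, and *Tyr* was at 0 in WT. Their part in the levels of *Slc7a1*, *Slc1a5* and *Slc38a2* was not tested. By SD in CPM, *Slc7a5* varied most of the 10 among the *Cryab*-R120G-homo libraries, at 40.2, 34.2 and 94.6 CPM (SD 33.3 CPM). *Slc38a2* was also at its highest of the 3 in the third of these libraries.

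*Slc6a9* was at 0.991, 0.0667 and 0.148 CPM in WT, 1.26, 0.196 and 0.350 CPM in het and 1.83, 1.32 and 0.535 CPM in homo lenses of the *Cryab* line, from 1 to 28 reads a library. The groups overlapped, and the log2 fold change of homo against WT was 1.83 (SE 0.91), with an adjusted p of 0.833 in edgeR. The first library of each genotype held the most *Slc6a9*, and it also held the most photoreceptor marker RNA (10 genes), with sums of 837.2, 635.3 and 1258.0 CPM against 22.4 to 85.5 CPM in the other WT, 101.0 to 299.4 CPM in the other het and 212.0 to 641.7 CPM in the other homo libraries. Inner retina and glia markers (10 genes) summed to 47.7, 39.8 and 69.3 CPM in these first libraries and to 8.5 to 38.1 CPM in the others. The part of retinal RNA in the level of *Slc6a9* was not tested. Without the first WT library the log2 fold change was 3.49, with an adjusted p of 0.213 in edgeR.

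*Cryab*-R120G-het lenses differed from WT in none of the 10 genes by the test, against 0.00717% of all genes, and 0 had an unadjusted p under 0.05, against 3.82%. *Slc38a2* was lower in all 3 het libraries, at 43.6, 45.9 and 41.4 CPM, than in any WT library, with a log2 fold change of -0.48 (SE 0.25) and an adjusted p of 1 in edgeR. It was the one transporter whose het and WT libraries did not overlap, against 10.1% of all genes, 5.47% lower. Between homo and het lenses no transporter passed the test, nor did any other gene (0%), and 1, *Slc7a1*, had an unadjusted p under 0.05, against 1.97% of all genes. *Slc7a1* was the one transporter without overlap there, against 6.86% of all genes, 3.46% lower, with a log2 fold change of -0.63 (SE 0.29).

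**Figure D3:**
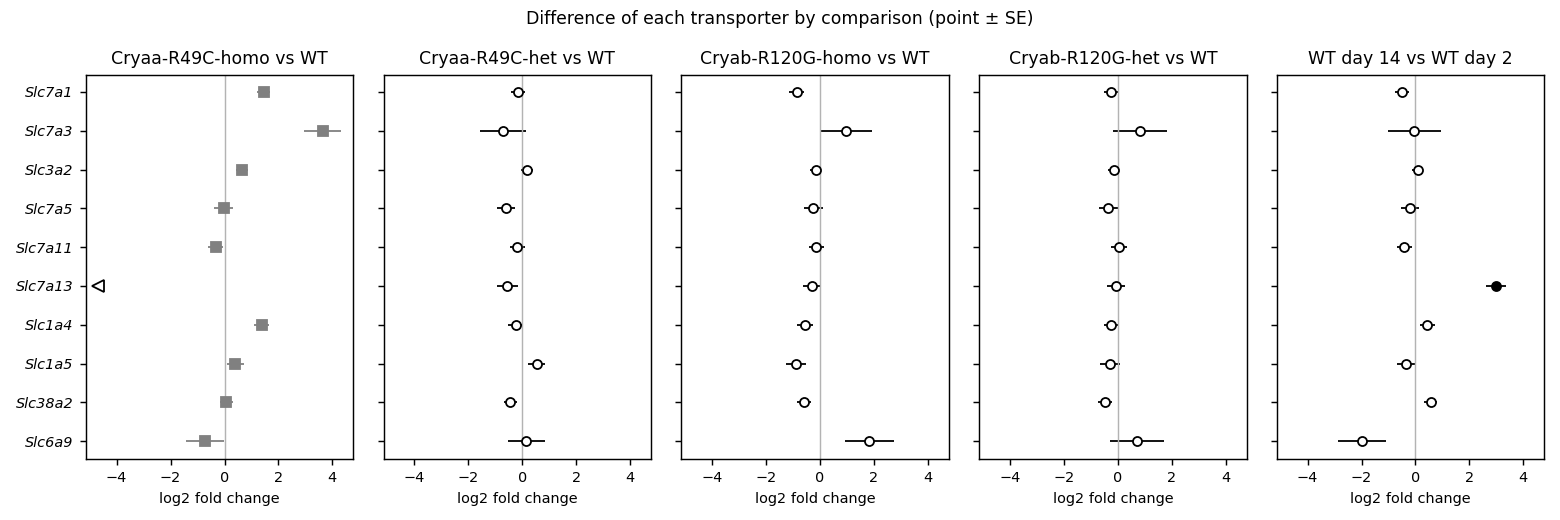
log2 fold change (x axis) of the 10 transporters (y axis) in 5 comparisons, with points for the fitted value and lines for its SE. Grey squares are *Cryaa*-R49C-homo against WT, drawn without a test, with an open triangle for *Slc7a13* at its bound of 25.8-fold lower; in the other 4 comparisons filled circles are past the threshold, and the only one is *Slc7a13* in WT lenses at day 14 against day 2.

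The effects of the lines were set against each other. For the heterozygotes the difference between the lines was tested, and no transporter and no other gene passed (0%), and 0 transporters had an unadjusted p under 0.05, against 2.53% of all genes. The largest differences among the 10 were 1.54 (SE 1.32) for *Slc7a3* and -0.82 (SE 0.48) for *Slc1a5* on the log2 scale. For the homozygotes the difference is given as a description, with no call, since it contains the comparison that chose the genes. The effect in the *Cryab* line minus that in the *Cryaa* line was -2.31 (SE 0.39) for *Slc7a1*, -2.68 (SE 1.30) for *Slc7a3*, -1.93 (SE 0.40) for *Slc1a4*, -1.30 (SE 0.49) for *Slc1a5*, -0.81 (SE 0.30) for *Slc3a2* and -0.66 (SE 0.35) for *Slc38a2*. It was nearer 0 for *Slc7a5*, at -0.21 (SE 0.48), and *Slc7a11*, at 0.19 (SE 0.41). It was positive for *Slc6a9*, at 2.57 (SE 1.16), and for *Slc7a13*, whose fitted value of 6.81 (SE 0.96) rests on the group with 0 reads. Both the value and its SE depend on the prior count of the fit, which was left at the edgeR default. For *Slc7a1* and *Slc1a5* the homo libraries lay above all WT libraries at day 2 and below all WT libraries at day 14.

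WT lenses at day 14 and day 2 differed in 23.2% of all genes tested, 11.7% higher at day 14, and in 1 of the 10 transporters, which was higher. *Slc7a13* rose from 0.745 ± 0.314 CPM to 5.90 ± 1.22 CPM (SD, n = 3), a log2 fold change of 2.98 (SE 0.37), with an adjusted p of 1.12e-05 in edgeR and all 3 day 14 libraries above all 3 of day 2. The day 2 libraries are those that entered the comparison with *Cryaa*-R49C-homo lenses. Summed lens fibre markers were 141095 to 210676 CPM at day 2 and 666928 to 702572 CPM at day 14, and their part in the level of *Slc7a13* was not tested. *Slc38a2* was higher without overlap, at 0.56 (SE 0.25), and *Slc7a1* lower without overlap, at -0.50 (SE 0.27), with adjusted p values of 0.108 and 0.195 in edgeR, against 43.2% of all genes without overlap, 20.2% higher and 22.9% lower. Summed vessel markers were at 12.5 to 16.1 CPM at day 14 and 43.9 to 69.8 CPM at day 2. Macrophage markers were at 0.667 to 2.42 against 6.99 to 16.2 CPM, and pigment and ciliary epithelium markers at 7.49 to 9.13 against 21.2 to 38.2 CPM. Lens epithelium markers went the other way, at 478.5 to 526.2 against 279.6 to 401.7 CPM. The part of these cells in the level of *Slc7a1* was not tested. *Slc6a9* was at -1.98 (SE 0.89), with an adjusted p of 0.117 in edgeR. Without the first day 14 library, the one rich in photoreceptor RNA, it was -3.64, with an adjusted p of 0.0194. *Slc3a2* was at 0.08 (SE 0.21). With library size alone the median of all genes was -1.61 in place of -0.0654, and *Slc7a13* was still higher, at 1.53, while *Slc3a2*, *Slc38a2* and *Slc1a4* turned to -1.44, -0.96 and -1.04. The genes past the threshold then went from 1634 higher and 1603 lower to 157 and 11439.

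Per kilobase of exon, the first 3 places were the same in all 6 groups. *Slc3a2* led in every group, at 22.8 to 37.8 CPM per kilobase on average, followed by *Slc7a5* at 13.5 to 20.7 and *Slc38a2* at 3.44 to 6.89. *Slc3a2* and *Slc7a5* overlapped in *Cryaa* WT and *Cryab*-R120G-homo libraries and lay apart in the other 4 groups. *Slc38a2* lay apart from both neighbours in every group. Lower down the order changed with the group. *Slc7a13* took place 8 in WT and 9 in het lenses of the *Cryaa* line, place 10 in homo lenses and place 4 in all 3 groups of the *Cryab* line, where it lay apart from *Slc38a2* above it and *Slc1a4* below it. *Slc7a1* was at place 7 in WT and place 5 in homo lenses of the *Cryaa* line, at 0.435 ± 0.0641 and 1.19 ± 0.436 CPM per kilobase, and at places 8 and 9 in WT and homo lenses of the *Cryab* line. *Slc7a3* was last in every group but the *Cryaa*-R49C-homo lenses, where it overlapped *Slc6a9*.

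**Figure D4:**
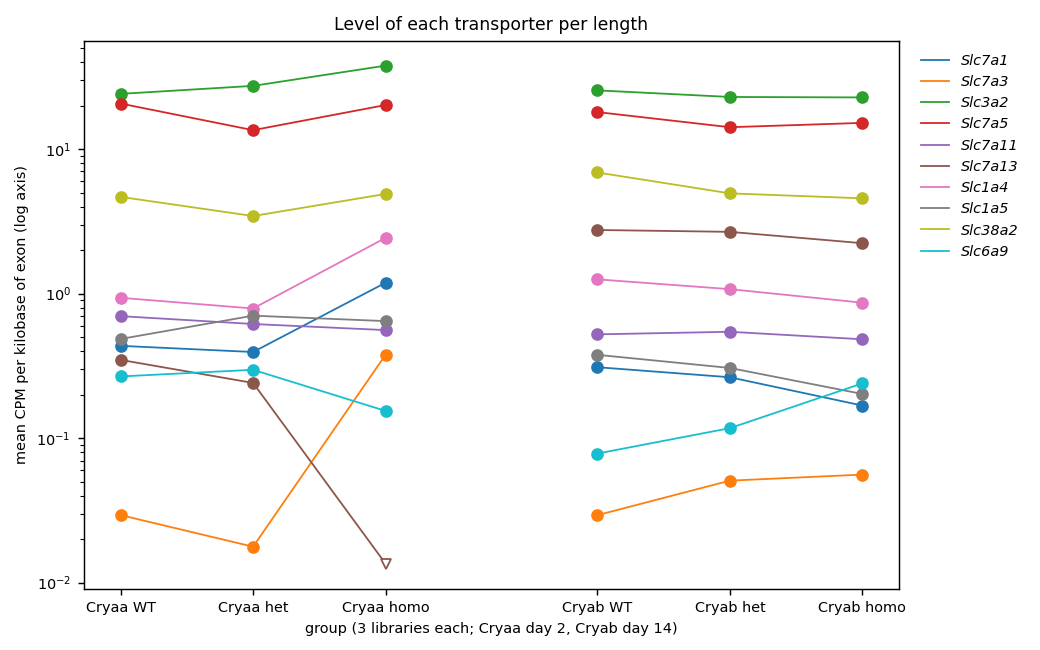
Mean CPM per kilobase of exon (log axis) of the 10 transporters in the 6 groups of 3 libraries. Lines join groups of a line; *Slc7a13* in *Cryaa*-R49C-homo lenses, at 0, is drawn as an open triangle at the floor of 3 reads over the group, and *Slc3a2*, *Slc7a5* and *Slc38a2* keep the first 3 places throughout.

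Likeness was measured as Pearson's r of log2 CPM over the 18 libraries, which share age, line and depth, and is a description. *Slc7a13* was most like *Lctl*, *Sh3bgr* and *Pacsin3* (r = 0.995, 0.995 and 0.993). *Slc7a3* had at most 5 reads in each of the 15 libraries outside *Cryaa*-R49C-homo, so its r rests on the 3 homo libraries, which informed the choice of the genes. It was most like *Ddit3*, which encodes CHOP, a partner of ATF4 (r = 0.89), then *Rny1* (0.89) and *Eif4ebp1* (0.88). *Slc1a4* was most like *Mthfd1l*, a mitochondrial folate enzyme (0.89), *Tmem248* (0.89) and *Zfp365* (0.88), and *Slc7a1* was most like *Uaca*, *Myo5a* and *Ctr9* (0.95, 0.93 and 0.92). *Slc3a2* was nearest to *Ccnd2* (0.92), *Slc7a5* to *Cpeb2* (0.94), *Slc38a2* to *Ybx1* (0.95), *Slc7a11* to *Sema3a* (0.87), *Slc6a9* to *Tmem150c* (0.91) and *Slc1a5* to *Gtse1* (0.88). Among the 10 themselves, r was 0.73 between *Slc7a3* and *Slc1a4*, with the same limit, 0.72 between *Slc7a5* and *Slc38a2* and -0.85 between *Slc7a1* and *Slc7a13*. The r values of *Slc7a13* include the *Cryaa*-R49C-homo libraries, where it had 0 reads and *Slc7a1* was at its highest. Those libraries informed the choice of the genes.

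Of 36 further genes of the same families, 23 were tested, and in *Cryaa*-R49C-homo against WT lenses 0 were higher and 3 lower, where 9.79% of all genes were past the threshold. These were *Slc38a8* at -3.31 (SE 0.77), *Slc6a15* at -1.61 (SE 0.28) and *Slc6a17* at -0.91 (SE 0.29). *Slc7a2* (CAT-2), another cationic carrier, was at 28.7 ± 12.2 CPM in the WT group and at 21.9 ± 3.02 CPM in the homo group (SD, n = 3). It was looked up after its values had been seen. Of 10 genes of other families, 7 were tested and 1 was lower, *Slc16a10*, a carrier of aromatic amino acids, at -2.71 (SE 0.73). The median log2 fold change of the 23 genes was -0.22. Without the first homo library the counts were 1 higher and 4 lower of the 23, and 2 lower of the 7. *Slc16a10* was no longer past the threshold without WT replicate 1 or 3 or homo replicate 2 or 3, nor when scaled by library size only. In the *Cryab* line and in *Cryaa*-R49C-het lenses none of these genes passed the test against WT. *Slc6a13*, a transporter of the *Slc6* family listed here with the pigment and ciliary epithelium markers and not with the 36, passed it in *Cryab*-R120G-homo lenses, at 3.64 ± 0.254 CPM against 0.588 ± 0.453 CPM in WT (SD, n = 3), a log2 fold change of 2.71 (SE 0.49) with an adjusted p of 0.0353 in edgeR. It is the 1 marker of that list that passed there, where the summed list was also above WT, and the part of those cells in its level was not tested. In WT lenses at day 14 against day 2, where 23.2% of all genes were past the threshold, 2 of the 23 were higher (*Slc38a4* at 0.92 and *Slc7a8* at 0.92) and 5 lower, *Slc38a8* at -3.51, *Slc1a3* at -3.17, *Slc1a6* at -2.50, *Slc38a1* at -1.32 and *Slc7a6* at -0.62. These counts were 0 and 2 without *Cryaa* WT replicate 3, 2 and 1 without *Cryab* WT replicate 2, 1 and 1 without *Cryab* WT replicate 3, and 0 and 19 when scaled by library size only. *Slc1a3* also stands in the inner retina and glia list, of which 3 of 9 tested genes were lower at day 14, and *Slc7a8* in the lens epithelium list, of which 2 of 7 were higher and 2 lower, and the part of those cells was not tested. Of the 7 genes of other families, 0 were higher and 2 lower at day 14, *Slc16a10* at -6.94 (SE 1.29) and *Slc43a1* at -4.79 (SE 0.79), with 4 lower without *Cryab* WT replicate 1 and all 7 lower when scaled by library size only.

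The pathways that read or drive transporter genes gave the following counts, for lists drawn up with earlier results of these data known. Of 25 ATF4 regulators and targets, all tested, 17 were higher and 1 lower in *Cryaa*-R49C-homo against WT lenses, with a median log2 fold change of 2.29, where 9.79% of all genes were past the threshold. *Trib3*, a pseudokinase induced by ATF4, was at 9.21 (SE 0.66), *Chac1*, which degrades glutathione, at 8.43 (SE 0.86) and *Ddit3* at 5.17 (SE 0.31). The 1 lower gene was *Pycr1*, a proline synthesis enzyme, at -1.69. Of 14 NRF2 targets and glutathione enzymes, 3 were higher, *Osgin1* at 4.17 (SE 0.71), *Srxn1* at 2.10 (SE 0.31) and *Txnrd1* at 0.80, and 1 lower, *Ggt1*, at -1.06 (SE 0.32). Among 14 tested genes by which mTORC1, the growth kinase, senses amino acids, none was higher and 2 were lower, a share near that of all genes, *Sesn3* and *Sesn1*, at -1.28 (SE 0.29) and -1.18 (SE 0.27). *Sesn2*, which was counted with the ATF4 genes and not with these 14, was higher, at 3.18 (SE 0.33). The NRF2 counts were 2 higher and 0 lower without any 1 of WT replicates 1 and 2 and homo replicates 2 and 3, and 6 and 4 without homo replicate 1, and the mTORC1 counts were 0 and 0 when scaled by library size only. None of these 3 lists had a gene past the test in *Cryaa*-R49C-het or in either *Cryab* genotype against WT. In WT lenses at day 14 against day 2, 9 ATF4 genes were higher and 1, *Vldlr*, lower, beside 23.2% of all genes, with *Ppp1r15a*, which restarts translation, at 4.73 and *Chac1* at 3.75, while *Slc7a1*, *Slc7a3* and *Slc1a4* were at -0.50, -0.04 and 0.44 and did not pass the test. The ATF4 counts there were 5 and 1 without *Cryaa* WT replicate 3, and 3 and 13 when scaled by library size only. Of the 14 NRF2 and glutathione genes 6 were higher at day 14, among them *Hmox1*, which degrades haem, at 2.76 (SE 0.33), *Gclc*, which begins glutathione synthesis, at 2.11 (SE 0.31) and *Gpx4* at 1.17 (SE 0.28), and 1 was lower, *Txnrd1* at -0.72 (SE 0.26). These counts were 3 and 0 without *Cryaa* WT replicate 3, 4 and 0 without *Cryab* WT replicate 2, and 2 and 8 when scaled by library size only. Of the 14 mTORC1 genes 2 were higher, *Rragc* at 1.37 (SE 0.28) and *Sesn1* at 0.90 (SE 0.27), and 1 was lower, *Depdc5* at -1.17 (SE 0.39), a share near that of all genes. Without *Cryaa* WT replicate 3, *Cryab* WT replicate 2 or *Cryab* WT replicate 3 these were 1 and 0, without *Cryaa* WT replicate 1 they were 1 and 1, without *Cryaa* WT replicate 2 they were 2 and 0, and scaled by library size only they were 0 and 12.

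**Figure D5:**
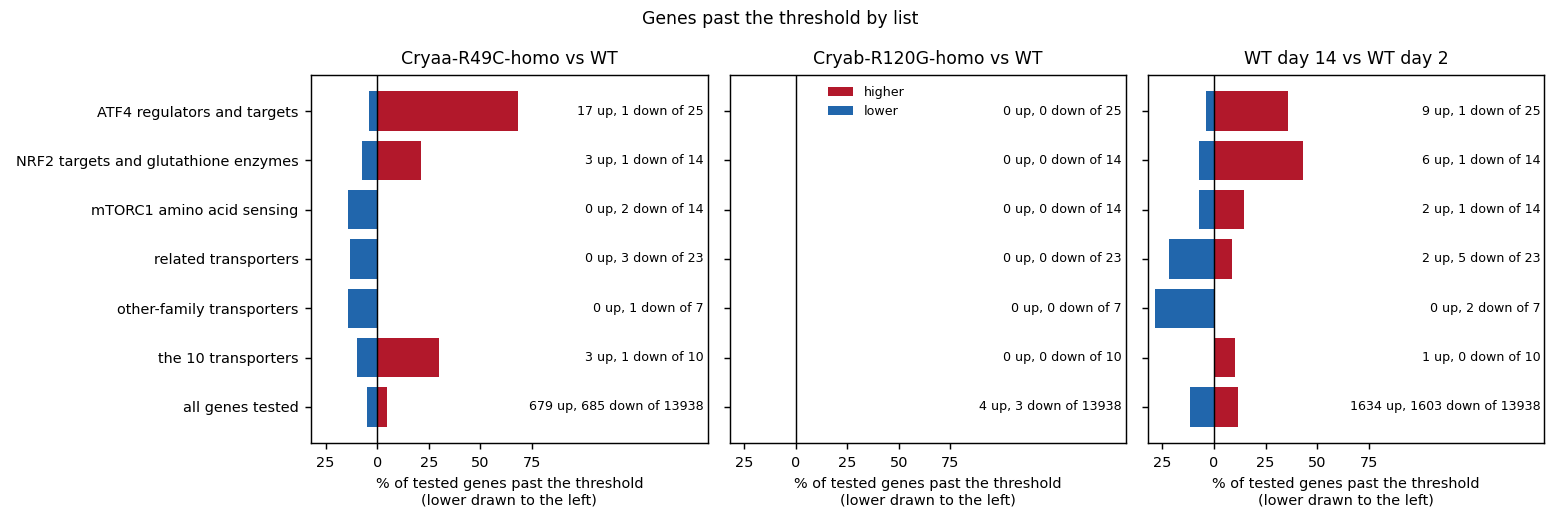
Share of the tested genes of each list past the threshold (x axis, percent, higher to the right and lower to the left) in 3 comparisons, with the counts printed. The ATF4 list has 17 of 25 genes higher in *Cryaa*-R49C-homo lenses and the further transporters have none.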

How the data were processed

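RNA-seq of pooled whole lenses was analysed in 18 libraries (6 groups, n = 3). Per the labels and the study's methods, the authors made poly-A libraries with single reads of 50 bases, aligned them to GRCm38 with STAR 2.0.4b and counted unique, unambiguous reads per Ensembl gene with featureCounts 1.4.5; the deposited counts are not normalised. The CPM, RPKM and moderated log2 CPM tables were not used. Of 40800 genes, 13938 passed filterByExpr, all 10 transporters included. Counts were TMM-scaled and fitted as 1 model of 6 groups with the edgeR 4.0.16 robust quasi-likelihood test in R 4.3.3. The false discovery rate threshold was 0.05 over all genes tested. The prior count of the fit was left at the edgeR default, and a prior count of 2 was used for the log2 CPM behind the correlations. The scripts were tested on simulated data. The transporters and the gene lists were chosen with earlier results of these data known. All 10 transporters were named; of the other transporter and pathway lists, at most 3 genes a comparison with the largest change among those past the threshold and without overlap between groups, beyond which genes behind small counts were named after their values were seen. Marker lists are given mainly as sums and counts. The paper calls the libraries of a group biological replicates, each of several combined lenses. Whether they came from separate litters is not given in the sources used here, and p-values measure the spread between these pools, not between single mice. Alternatives were library size alone, DESeq2 1.42.0, every gene with a count (26547), a robust likelihood-ratio test, the libraries compared alone, *Gm42418* left out, a replicate block and each library left out. Numbers were taken as pairs where the correlation of same-numbered libraries was over 0.1 for all 3 numbers, which held only in *Cryab*-R120G-homo against WT (0.28, 0.18 and 0.16), where the pairing comes from the data and not from the labels. Exon lengths are from GENCODE vM21. The floor of 3 reads covers counting error only. The SE of a fold change was taken as its absolute log2 value over the square root of the F statistic of the test, and so includes the spread between libraries. Where a group has 0 reads, this SE depends on the prior count of the fit, as the fold change does.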

Additional observations from a re-analysis of the deposited data

Results flagged for a closer look

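Homo libraries lay on opposite sides of WT in the lines for *Slc7a1* and *Slc1a5*. For *Slc7a1* the log2 fold change was 1.45 in the *Cryaa* line and -0.87 in the *Cryab* line, with every homo library above every WT library in the first and below in the second. For *Slc1a5* it was 0.40 (SE 0.31) and -0.89 (SE 0.38), again without overlap but by small margins. In the *Cryaa* line the lowest homo library was at 2.42 and the highest WT library at 2.38 CPM. In the *Cryab* line the highest homo library was at 0.990 and the lowest WT library at 1.13 CPM. *Slc1a5* was also at 0.53 (SE 0.31) in *Cryaa*-R49C-het lenses. Homo and WT libraries did not overlap in 24.5% of all genes in the *Cryaa* line and in 9% in the *Cryab* line. The difference between the lines is given as not tested: the genes had been chosen with the *Cryaa*-R49C-homo values known, so no p-value of the fitted difference is used.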

How the results depend on the processing

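Of the 4 transporters past the threshold in *Cryaa*-R49C-homo against WT, the number was 4 or 5 under every setting, and 4 to 5 with each library left out. Against het it was 4 or 5, and 4 to 6. Since the homo libraries informed the choice of the genes, these numbers are a description and are not a sign of robustness. In *Cryab*-R120G-homo against WT it was 0 except 1 with the robust likelihood-ratio test (*Slc6a9*, 2.68). In WT lenses at day 14 against day 2, 1 gene became 9 with library size alone, 2 with every gene with a count, 3 with the robust test, 2 with the replicate block (*Slc6a9* at -2.21) and 1 to 2 with each library left out, the 2 being *Slc7a13* and *Slc6a9* (-3.64) without *Cryab* WT replicate 1. It was 0 throughout in *Cryaa*-het and *Cryab*-het against WT, *Cryab*-homo against het and the het difference between lines. Where the numbers pair the libraries (*Cryab*-R120G-homo against WT), the block changed no transporter's call, with *Slc7a1* at -0.88. Elsewhere the libraries were not taken as pairs, and the block moved the number of transporters past the threshold from 4 to 5 in *Cryaa*-R49C-homo against WT and from 1 to 2 between the WT groups. The titles of *Cryab* het and homo libraries of the same replicate carry neighbouring numbers, whose meaning is not given. The correlation of these libraries was 0.26, -0.00814 and 0.0573. Genes past the threshold went from 7 to 302 (*Cryab*-homo against WT), 1 to 17 (*Cryaa*-het), 1 to 140 (*Cryab*-het), 0 to 15 (*Cryab*-homo against het) and 0 to 88 (the het difference) with every gene with a count, and with that gene set 3 ATF4 genes were lower in each *Cryab* genotype against WT. With library size alone, the sign turned in *Cryaa*-het against WT (*Slc7a1* 0.0861, *Slc7a11* 0.067, *Slc1a4* 0.0595), in *Cryab*-homo against WT (*Slc7a5* 0.0879, *Slc7a11* 0.22, *Slc7a13* 0.034, *Slc3a2* 0.20), in *Cryab*-het against WT (*Slc7a13* 0.15, *Slc3a2* 0.0534), in *Cryab*-homo against het (*Slc3a2* 0.14, *Slc38a2* 0.0151), in day 14 against day 2 (*Slc3a2* -1.44, *Slc38a2* -0.96, *Slc1a4* -1.04), in the het difference between lines (*Slc1a4* -0.0895). With DESeq2, the sign turned in *Cryab*-homo against het (*Slc3a2* 0.00202), in the het difference between lines (*Slc1a4* -0.0217). With the robust likelihood-ratio test, the sign turned in *Cryab*-homo against het (*Slc7a5* -0.23). Without *Gm42418*, the sign turned in *Cryab*-homo against het (*Slc3a2* 0.0134), in the het difference between lines (*Slc1a4* -0.0262). With the replicate block, the sign turned in *Cryab*-homo against het (*Slc7a5* -0.0104), in day 14 against day 2 (*Slc7a3* 0.0184). With only the libraries compared, the sign turned in *Cryab*-homo against het (*Slc3a2* 0.00922). With every gene with a count, the sign turned in the het difference between lines (*Slc1a4* -0.00326). With each library left out in turn, the sign turned with these ranges. In *Cryaa*-het against WT they were *Slc6a9* -0.17 to 0.79. In *Cryab*-homo against WT they were *Slc7a11* -0.40 to 0.17 and *Slc7a5* -0.85 to 0.0111. In *Cryab*-het against WT they were *Slc7a11* -0.17 to 0.35, *Slc7a13* -0.32 to 0.10, *Slc1a4* -0.49 to 0.10, *Slc1a5* -0.65 to 0.15 and *Slc6a9* -0.34 to 2.37. In *Cryab*-homo against het they were *Slc7a3* -0.28 to 0.81, *Slc7a13* -0.41 to 0.00438, *Slc3a2* -0.0938 to 0.0823, *Slc7a11* -0.45 to 0.00493, *Slc38a2* -0.43 to 0.038 and *Slc7a5* -0.50 to 0.36. In day 14 against day 2 they were *Slc7a3* -1.27 to 0.64 and *Slc3a2* -0.0513 to 0.24. In the het difference between lines they were *Slc1a4* -0.25 to 0.35, *Slc7a1* -0.25 to 0.0907, *Slc6a9* -0.49 to 2.22 and *Slc38a2* -0.18 to 0.13. The cause was not tested. Depth limits *Slc7a3*, with at most 5 reads outside *Cryaa*-homo, and *Slc6a9*, with 1 to 28 reads in the *Cryab* line.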
